A study of Mus musculus with 6 samples.

Results

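The complement system is a set of plasma and cell-surface proteins that tag, puncture and clear microbes and cell debris, and the liver makes most of its soluble part. The genes described here were 35 complement genes, chosen by symbol from a fixed list and found, all 35, among 35540 genes of a mouse liver RNA-seq table. By where they are known to be made in liver, 21 are hepatocyte genes, 7 are macrophage genes and 7 are made by other or several cell types. Liver RNA came from 6 Surf4 fl/fl mice, 3 with the Cre transgene (Surf4 fl/fl Alb-Cre+) and 3 littermate controls without it (Alb-Cre-). All 6 mice were of the C57BL/6J background, carried a Surf4 allele with exon 2 between loxP sites on both chromosomes, were kept with free access to chow under a daily light cycle, and were fasted overnight for up to 16 hours before collection. The age of these 6 mice is not given in the sources used here. In the Alb-Cre+ mice the albumin promoter drives Cre recombinase in hepatocytes, so that Kupffer cells (the resident macrophages of liver), endothelial cells and stellate cells keep an intact Surf4 gene. SURF4 is a cargo receptor that carries secreted proteins out of the endoplasmic reticulum. The replicates numbered 2 were female and the others male, 1 female and 2 males per genotype, so sex and replicate number 2 cannot be told apart.

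Complement starts along 3 routes. In the classical route C1q binds antibody and activates the proteases C1r and C1s, in the lectin route mannose-binding lectins, ficolins and collectins bind sugars and activate the MASP proteases, and the alternative route amplifies spontaneous cleavage of C3 with factor B and properdin. All of them cut C3, after which C5 to C9 assemble the pore called the membrane attack complex, while soluble and membrane-bound regulators protect host cells. Hepatocytes make C3, factor B and the terminal components. Kupffer cells and other macrophages are the main source of C1q and are among the cells that make properdin.

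The values were transcript abundances in TPM, a unit in which values correct for transcript length and add up to 1000000 in each mouse, so that levels can be compared between genes. They carry no read numbers, so neither depth nor counting error can be stated. The targeted gene was checked first. Surf4 was at 92.5, 94.5 and 92.5 TPM in Alb-Cre- replicates 1, 2 and 3 and 59.0, 71.8 and 54.3 TPM in Alb-Cre+ replicates 1, 2 and 3, lower in every Alb-Cre+ mouse than in every control, and a message that only lacks exon 2 still counts toward these values. Ddx3y, a Y-linked gene, was listed at 0 in both mice labelled female and between 19.3 and 22.3 TPM in the 4 labelled male. The 8 hepatocyte markers (Alb, Ttr, Apoa1 and others) summed to between 65466 and 100822 TPM per mouse, and 4 mesothelial markers to at most 1.23 TPM.

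Levels of the 35 genes ranged from those of the main plasma proteins down to the receptors. C3, the component on which all routes converge (GRCm38 chr17:57203970-57228136, minus strand), was the most abundant, with 1626, 1947 and 1591 TPM in Alb-Cre- replicates 1, 2 and 3 and 1939, 3220.1 and 1357 TPM in Alb-Cre+ replicates 1, 2 and 3. Vitronectin (Vtn), which binds and blocks the forming membrane attack complex, came next, between 1405 and 1832 TPM over the 6 mice, and clusterin (Clu), another soluble inhibitor of that complex, was between 973 and 1285 TPM. The ranges of C3 and Vtn overlapped, so their order is not set by these mice, whereas every C3 value lay above every Clu value. Hepatocyte genes had mean levels from 34.5 (Masp1) to 1947 TPM (C3), with a median of 197, and the macrophage genes from 1.09 (C5ar1) to 97.4 TPM (C1qb), with a median of 49.3. Together the 35 genes held between 0.790% and 1.11% of all TPM, and C3 alone between 17.2% and 29.0% of that. At a minimum mean of 0.1 TPM, 34 of the 35 entered the tests. The one that did not was Cfd, factor D, a protease that cuts factor B and is made chiefly by fat cells, listed at 0.0780, 0.0162 and 0 TPM in the controls and at 0, 0 and 0.0789 TPM in the Alb-Cre+ mice. The 5 fat cell markers listed summed to between 7.43 and 196 TPM, nearly all of it Cidec, a lipid droplet gene that hepatocytes also use, while Adipoq, Plin1 and Retn reached at most 0.247, 0.747 and 0.0247 TPM and Lep was listed at 0 in every liver.

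**Figure D1:**
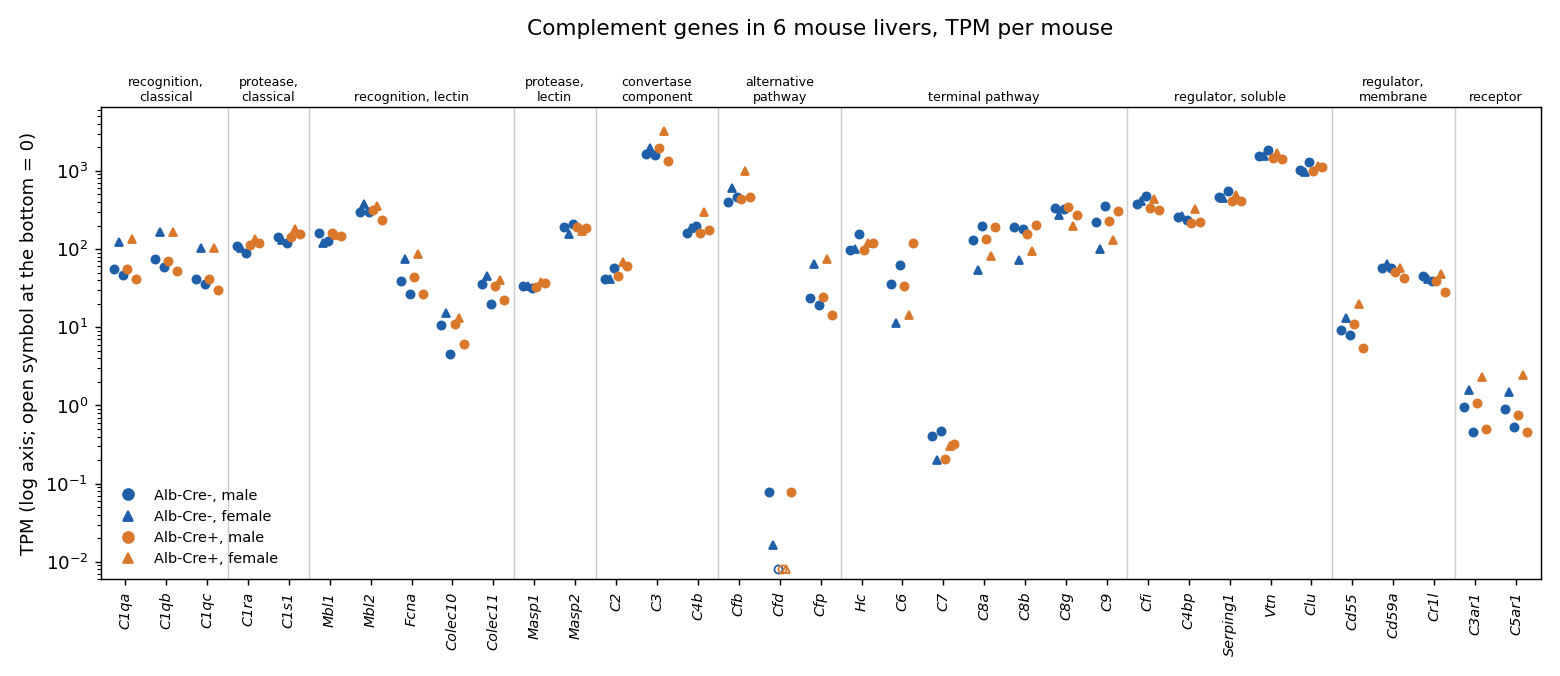
TPM of the 35 complement genes (log axis) in each of the 6 livers, grouped by role, with controls in blue, Alb-Cre+ in orange, males as circles and females as triangles. The genotypes mix in nearly all columns, and the triangles stand above the circles for C1qa, C1qb, C1qc, Fcna and Cfp and below them for C6, C8a, C8b and C9.

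No complement message was called as different between Alb-Cre+ and control livers, and neither was the targeted gene: Surf4 itself, with a log2 difference of -0.60 (SE 0.13), had an adjusted p of 1.00 in the same fit (limma), so the lack of a call does not show that a gene did not differ. At an adjusted p under 0.01 (limma with Benjamini-Hochberg adjustment over all genes), 0 of 34 genes were called, as was 0% of the 14189 genes tested. At an unadjusted p under 0.05, 0 of the 34 passed, beside 1.76% of all genes (250). Of the 34, 17 were higher and 17 lower in Alb-Cre+ livers, with a median log2 difference (Alb-Cre+ minus Alb-Cre-) of 0.026, beside -0.0017 for all genes. The 21 hepatocyte genes had a median of 0.086, with 12 higher and 9 lower. The 7 macrophage genes, whose cells keep Surf4, had a median of -0.016, with 3 higher and 4 lower. Without Alb-Cre- replicate 2 the hepatocyte median was -0.083, and leaving out single mice moved the macrophage median between -0.53 and 0.46.

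Precision differed between the genes. For 19 of the 34 the 95% confidence interval stayed within a 2-fold difference either way, and these included Vtn, Clu, Cfi, Serping1, both Masp and both Mbl genes. Intervals were wider for the C1q, C6, C8a, C8b, C9 and receptor genes among others, and the widest was that of C6, from -1.64 to 2.46 on the log2 scale. The groups did not overlap for 2 of 34 genes, C1ra and C1s1, beside 4.9% of all genes. That count was 4 without Alb-Cre- replicate 3 (beside 9.96% of all genes) or without Alb-Cre+ replicate 1 (9.58%), and 7 without Alb-Cre+ replicate 2 (20.3%). These intervals come from the fit without the replicate block, and the order of precision changes when same-numbered mice are paired. The SE then went from 0.51 to 0.10 for C1qa and from 0.87 to 0.20 for C6, the interval of C6 ran from -0.10 to 0.92, and 33 of 34 intervals stayed within a 2-fold difference, all but that of C7, from -1.07 to 0.57. All 34 intervals still included 0.

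**Figure D2:**
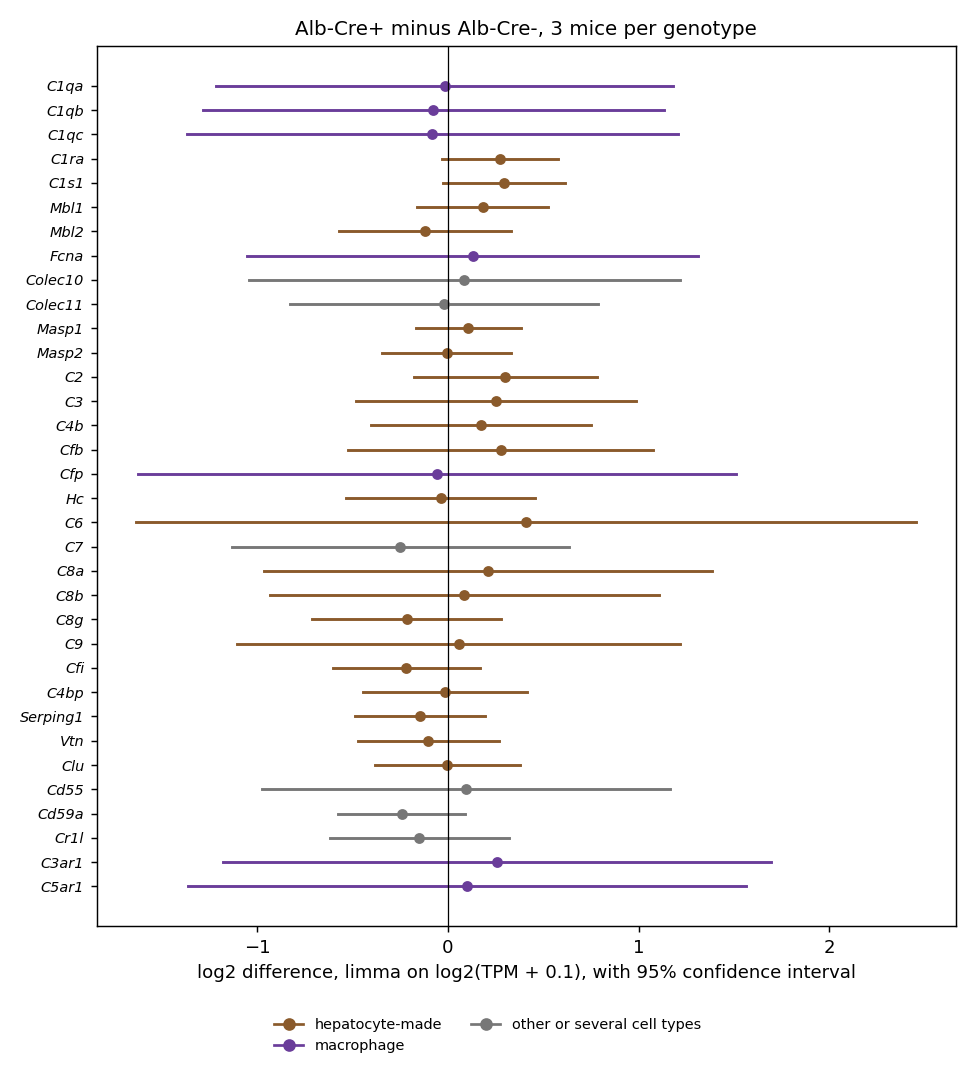
Log2 difference between genotypes (Alb-Cre+ minus Alb-Cre-, limma on log2(TPM + 0.1)) with its 95% confidence interval for the 34 genes tested, coloured by the cells that make them. The points lie between -0.25 (C7) and 0.41 (C6) and every interval includes 0.

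Among the genes of the classical route, the proteases were the ones with the smallest p. C1ra, which encodes C1r, was at 111, 102 and 90.3 TPM in Alb-Cre- replicates 1, 2 and 3 and 113, 134 and 119 TPM in Alb-Cre+ replicates 1, 2 and 3. C1s1, which encodes C1s, was at 143, 132 and 119.8 TPM in the controls and 144, 182 and 158 TPM in the Alb-Cre+ mice. In both genes the lowest Alb-Cre+ mouse, replicate 1, lay just above the highest control, also replicate 1, and the other Alb-Cre+ mice stood further apart. The log2 difference was 0.27 (SE 0.13, 95% CI -0.032 to 0.58) for C1ra and 0.29 (SE 0.13, 95% CI -0.024 to 0.61) for C1s1, with unadjusted p of 0.0721 and 0.0651 and adjusted p of 1.00 for both (limma, n = 3 per genotype). The genes are neighbours on chromosome 6 of GRCm38 (chr6:124512405-124523443, plus strand; chr6:124530345-124542359, minus strand), and their ratio was nearly the same in every mouse, from 1.28 to 1.36 C1s1 per C1ra in TPM. Of the stretches of 31 bases in C1ra, 59.3% also occur in its copy C1rb, and 33.5% of those in C1s1 occur in C1s2. C1rb and C1s2 were listed at or under 0.0337 TPM, and how reads were split between the copies was not tested.

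The recognition subunits moved far more between mice of one genotype than between genotypes. C1qb, the most abundant of the chains, was at 73.8, 164 and 58.8 TPM in Alb-Cre- replicates 1, 2 and 3 and 70.9, 165 and 52.1 TPM in Alb-Cre+ replicates 1, 2 and 3. C1qa was at 56.3, 122 and 46.6 TPM in the controls and 54.9, 135 and 41.7 TPM in the Alb-Cre+ mice. C1qc was at 41.8, 103 and 36.0 TPM in the controls and 41.7, 104 and 30.0 TPM in the Alb-Cre+ mice. In each genotype the female mouse, replicate 2, held more than every male, and the genotypes overlapped throughout. The log2 differences between genotypes were -0.016 (SE 0.51, 95% CI -1.21 to 1.18) for C1qa, -0.076 for C1qb and -0.082 for C1qc. The chains combine into one molecule and kept to a narrow ratio, with 1.22 to 1.35 C1qb and 0.720 to 0.843 C1qc per C1qa in TPM. Their genes lie side by side on the minus strand of GRCm38 (C1qa chr4:136895917-136898803, C1qc chr4:136889804-136893065 and C1qb chr4:136880129-136886187).

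In the lectin route, Mbl2 (mannose-binding lectin C) was the most abundant recognition gene, with 296, 379.6 and 297 TPM in Alb-Cre- replicates 1, 2 and 3 and 313, 355 and 234 TPM in Alb-Cre+ replicates 1, 2 and 3. Its counterpart Mbl1 (mannose-binding lectin A) was at 162, 119 and 125 TPM in the controls and 161, 151 and 146 TPM in the Alb-Cre+ mice. The genotypes overlapped for both, the log2 difference being -0.12 (SE 0.19, 95% CI -0.57 to 0.33) for Mbl2 and 0.18 (SE 0.15, 95% CI -0.16 to 0.53) for Mbl1. Fcna, the macrophage ficolin, was at 39.1, 74.1 and 26.3 TPM in the controls and 44.1, 85.5 and 26.5 TPM in the Alb-Cre+ mice, again highest in the female of each genotype. The collectin genes Colec10 and Colec11 ranged from 4.52 to 15.3 TPM and from 19.8 to 45.2 TPM, with log2 differences of 0.087 ± 0.48 and -0.021 ± 0.34 (± SE). Both were lowest in the replicates numbered 3 and highest in the replicates numbered 2.

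The MASP genes each give more than one protein, and the deposited transcript values separate them. Masp1 (GRCm38 chr16:23449417-23520815, minus strand) makes MASP-1 or MASP-3, proteases that share their front part and differ in the protease domain. Masp2 (chr4:148602554-148615499, plus strand) makes the protease MASP-2 or the short MAp19, which ends before the protease part. The bases below, read from GRCm38 with the GENCODE M21 exons, are shown because they are where the messages part: lower case marks the last 20 bases of the shared exon and capitals the first 20 bases of the next one, 5′ to 3′ on the coding strand. For Masp1 the shared exon ends at base 23474874 of chromosome 16 (minus strand) and the next exon is chr16:23465028-23465165 in MASP-1 and chr16:23468363-23470730 in MASP-3. For Masp2 the shared exon ends at base 148603818 of chromosome 4 (plus strand) and the next is chr4:148605580-148605776 in MASP-2 and chr4:148604256-148604417 in MAp19.
MASP-1: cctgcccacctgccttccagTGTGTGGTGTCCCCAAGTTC
MASP-3: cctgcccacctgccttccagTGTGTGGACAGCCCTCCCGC
MASP-2: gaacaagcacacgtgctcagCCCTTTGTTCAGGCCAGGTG
MAp19: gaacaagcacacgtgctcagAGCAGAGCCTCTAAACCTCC
The messages code for 704 codons in MASP-1, 733 in MASP-3, 685 in MASP-2 and 185 in MAp19.

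By the deposited transcript values, MAp19 was the main message of Masp2 in liver. How reads of shared exons were split between messages was not tested, and protein was not measured. The MAp19 message was at 136, 107 and 153 TPM in Alb-Cre- replicates 1, 2 and 3 and 138, 115 and 137 TPM in Alb-Cre+ replicates 1, 2 and 3. MASP-2 was at 44.0, 38.5 and 42.4 TPM in the controls and 42.8, 42.0 and 39.5 TPM in the Alb-Cre+ mice. Every mouse held more MAp19 than MASP-2, from 2.73 to 3.60 times as much. The log2 differences between genotypes were -0.0075 ± 0.17 for MAp19 and -0.0044 ± 0.13 for MASP-2 (± SE), and for the whole gene -0.0073 (SE 0.14, 95% CI -0.35 to 0.33).

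The MASP-1 message exceeded that of MASP-3 in every mouse. MASP-1 was at 21.4, 18.6 and 25.2 TPM in Alb-Cre- replicates 1, 2 and 3 and 22.8, 24.6 and 27.6 TPM in Alb-Cre+ replicates 1, 2 and 3. MASP-3 was at 12.0, 14.6 and 6.56 TPM in the controls and 9.80, 12.8 and 8.34 TPM in the Alb-Cre+ mice. MASP-3 per MASP-1 ranged from 0.261 in Alb-Cre- replicate 3 to 0.782 in Alb-Cre- replicate 2, and in each genotype it was highest in the female mouse and lowest in replicate 3. The sum over the gene hid this, at 33.8, 33.6 and 32.2 TPM in the controls and 32.9, 38.2 and 36.3 TPM in the Alb-Cre+ mice, a range of 1.19-fold and the narrowest among the 34 genes. MAp44, a further product, held at most 1.51% of the Masp1 TPM in any mouse. The log2 difference between genotypes was 0.11 (SE 0.12, 95% CI -0.17 to 0.38) for the gene, 0.21 ± 0.17 for MASP-1 and -0.044 ± 0.32 for MASP-3 (± SE). Over all 112 complement transcripts tested of 41627, 0 passed an adjusted p of 0.01 (limma) and 1 had an unadjusted p under 0.05, beside 2.84% of all transcripts. It was a minor Clu transcript with a log2 difference of -0.42.

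**Figure D3:**
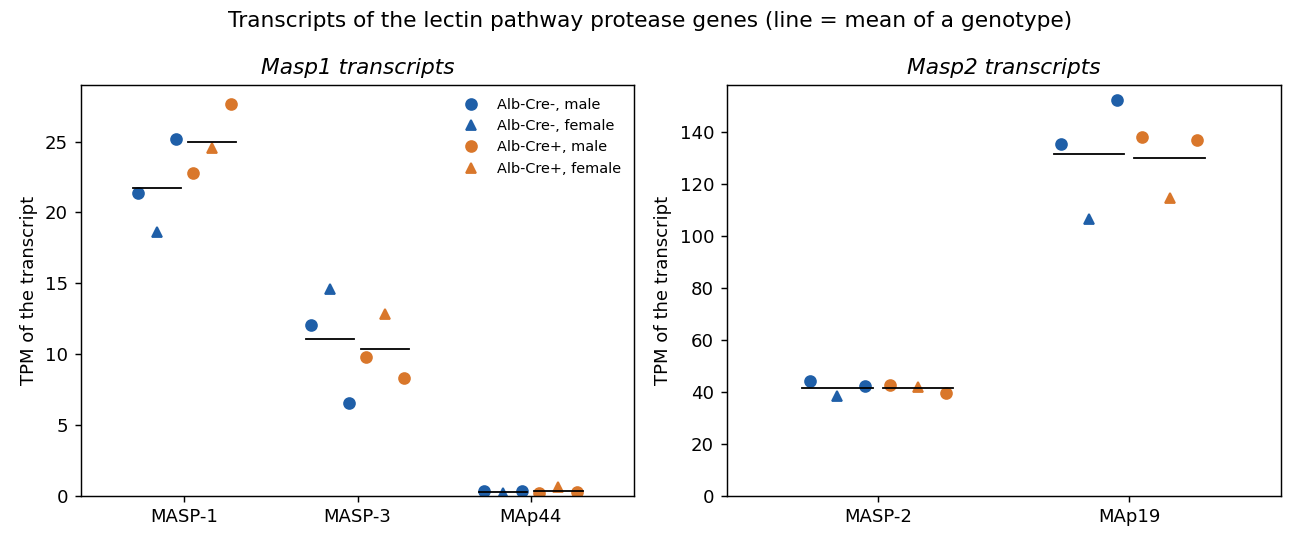
TPM of the Masp1 transcripts (left) and Masp2 transcripts (right) in each mouse, with a line at the mean of each genotype, controls in blue and Alb-Cre+ in orange, males as circles and females as triangles. MAp19 stands above MASP-2 in all 6 mice, and the triangles are the highest points of their genotype for MASP-3.

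C2, C4b and C3 supply the convertases, the enzymes that cut C3 and C5. C3, whose values are given above, was highest in Alb-Cre+ replicate 2 and lowest in Alb-Cre+ replicate 3, so the Alb-Cre+ mice bracketed all controls, and the log2 difference was 0.25 (SE 0.31, 95% CI -0.48 to 0.98). C4b was at 160.3, 187 and 197 TPM in the controls and 159, 301 and 177 TPM in the Alb-Cre+ mice, with the female Alb-Cre+ mouse far above the other 5, and the log2 difference was 0.17 (SE 0.24, 95% CI -0.40 to 0.75). C2, the protease of the classical C3 convertase, was at 41.0, 42.0 and 56.9 TPM in the controls and 44.8, 68.4 and 60.0 TPM in the Alb-Cre+ mice. Alb-Cre+ replicate 2 was the highest, the control replicate 3 lay among the Alb-Cre+ values, and the log2 difference was 0.30 (SE 0.20, 95% CI -0.18 to 0.78), with an unadjusted p of 0.183 (limma). Of the C4b sequence, 48.3% of the stretches of 31 bases are shared with a neighbouring copy that is not analysed here, so its values may hold reads of both, which was not tested.

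In the alternative route, Cfb (factor B) was at 397, 608 and 462 TPM in Alb-Cre- replicates 1, 2 and 3 and 433, 998 and 459.6 TPM in Alb-Cre+ replicates 1, 2 and 3. Both females stood above every male, and the log2 difference between genotypes was 0.28 (SE 0.34, 95% CI -0.52 to 1.08). A readthrough gene, Gm20547, which joins C2 and Cfb, shares 75.5% of the Cfb stretches of 31 bases and 40.8% of those of C2, and was listed at no more than 0.289 TPM. In the deposited gene-level table the authors' mean normalized count was 1318 for Cfb and 3039.7 for C2, the reverse of their order in TPM. Whether the assignment of shared reads differs between the deposited tables was not tested. Cfp, which encodes properdin, which stabilises the convertase, was at 23.9, 63.9 and 19.5 TPM in the controls and 24.2, 74.7 and 14.5 TPM in the Alb-Cre+ mice. As with C1q, the female of each genotype was the highest, and the log2 difference between genotypes was -0.059 (SE 0.66, 95% CI -1.63 to 1.51).

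The terminal genes encode the parts of the membrane attack complex. C8g, the gamma chain of C8, was the most abundant, with 332, 270.4 and 322 TPM in Alb-Cre- replicates 1, 2 and 3 and 340.3, 199 and 272 TPM in Alb-Cre+ replicates 1, 2 and 3. The controls overlapped the Alb-Cre+ mice, of which the female was lowest, and the log2 difference was -0.22 (SE 0.21, 95% CI -0.71 to 0.28). C9 (GRCm38 chr15:6445327-6498751, plus strand), the subunit that polymerises into the pore, was at 225, 101 and 354 TPM in the controls and 229.6, 129.6 and 305 TPM in the Alb-Cre+ mice, and its log2 difference was 0.055 (SE 0.49, 95% CI -1.10 to 1.21). C8a and C8b, the alpha and beta chains, were at 129.5, 53.9 and 195 TPM in the controls and 134, 82.3 and 190.2 TPM in the Alb-Cre+ mice, and at 192, 72.6 and 182 TPM in the controls and 156, 94.5 and 205 TPM in the Alb-Cre+ mice. In C9, C8a and C8b both females were below all 4 males. The log2 difference between genotypes was 0.21 ± 0.50 for C8a and 0.086 ± 0.43 for C8b (± SE).

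C6 (chr15:4727175-4814967, plus strand) was the most variable member, with a 10.7-fold range, at 36.0, 11.2 and 62.0 TPM in the controls and 34.1, 14.3 and 119.9 TPM in the Alb-Cre+ mice. Both females were at the bottom and Alb-Cre+ replicate 3 stood far above all other mice, and the log2 difference of 0.41 (SE 0.87, 95% CI -1.64 to 2.46) was -0.40 without that mouse and -0.28 without Alb-Cre- replicate 2. Hc, the gene of C5, was at 97.8, 99.4 and 157 TPM in the controls and 96.4, 121 and 121 TPM in the Alb-Cre+ mice and did not separate by genotype, with -0.039 (SE 0.21, 95% CI -0.54 to 0.46). C7 was low, at 0.404, 0.199 and 0.473 TPM in the controls and 0.205, 0.300 and 0.322 TPM in the Alb-Cre+ mice, and the log2 difference was -0.25 (SE 0.37, 95% CI -1.13 to 0.63).

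The soluble regulators all had log2 differences below 0, as had 7145 of the 14189 genes tested, and none of them was called. That direction was not kept in every pair. Between the females, numbered 2, all 5 were higher in the Alb-Cre+ mouse, from 0.059 (Cfi) to 0.30 (C4bp). With single mice left out, C4bp ran from -0.21 to 0.086 and Clu from -0.083 to 0.12. Serping1, the C1 inhibitor that blocks C1r, C1s and the MASPs, was at 457, 454 and 550.2 TPM in Alb-Cre- replicates 1, 2 and 3 and 408, 497 and 415 TPM in Alb-Cre+ replicates 1, 2 and 3, with -0.15 (SE 0.14, 95% CI -0.49 to 0.19). Cfi, factor I, which cleaves C3b and C4b, was at 376, 418 and 472 TPM in the controls and 338, 435 and 321 TPM in the Alb-Cre+ mice, with -0.22 (SE 0.16, 95% CI -0.60 to 0.17) and an unadjusted p of 0.222 (limma). For both genes the highest Alb-Cre+ mouse was the female, which lay among the controls, and both males were below all 3 controls. C4bp, a cofactor for factor I, ranged from 217 to 328 TPM, with -0.016 ± 0.18. Vtn was at 1541, 1533 and 1832 TPM in the controls and 1471, 1686 and 1405 TPM in the Alb-Cre+ mice, with -0.10 (SE 0.16, 95% CI -0.47 to 0.27), and Clu differed by -0.003 ± 0.16 (± SE).

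Among the membrane regulators, Cd59a, which stops C9 from polymerising on the body's own cells, was at 57.8, 63.6 and 56.5 TPM in Alb-Cre- replicates 1, 2 and 3 and 50.6, 57.6 and 42.9 TPM in Alb-Cre+ replicates 1, 2 and 3. It was lower in the Alb-Cre+ mouse of each replicate number, 1 Alb-Cre+ mouse lay among the controls, and the log2 difference of -0.24 (SE 0.14, 95% CI -0.58 to 0.092) had an unadjusted p of 0.130 (limma). Cr1l, also known as Crry, the rodent inhibitor of C3 convertases, ranged from 28.2 to 47.4 TPM, with -0.15 ± 0.20. Cd55, which speeds the decay of convertases, ranged from 5.45 to 20.1 TPM, with 0.093 ± 0.45, and was highest in the female of each genotype. The receptors for the small fragments C3a and C5a, which sit on myeloid cells, were near 1 TPM. C3ar1 was at 0.962, 1.56 and 0.459 TPM in the controls and 1.06, 2.32 and 0.495 TPM in the Alb-Cre+ mice, and C5ar1 at 0.891, 1.48 and 0.527 TPM in the controls and 0.760, 2.44 and 0.454 TPM in the Alb-Cre+ mice. Their log2 differences were 0.26 ± 0.61 and 0.10 ± 0.62 (± SE).

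Compared within replicate numbers, the direction of the genotype difference changed from pair to pair. Between the 2 females, 29 of 34 genes were higher in the Alb-Cre+ mouse, with a median log2 difference of 0.26, beside 66.7% of all genes and a median of 0.15. Between the mice numbered 1, 15 of 34 were higher and the median was -0.010, beside 44.6% and -0.023 for all genes. Between those numbered 3, 11 of 34 were higher and the median was -0.17, beside 33.2% and -0.14. In the Alb-Cre+ mouse of every pair, 5 of the 34 genes (C1ra, C1s1, C2, Fcna and C3ar1) were higher and 1 (Cd59a) lower. The share of all genes that kept one direction in every pair was not computed, so these counts have no reference.

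The larger contrast in these livers was between the replicates numbered 2, both female, and the 4 male mice. In a model with genotype and sex, 0 of 34 genes passed an adjusted p of 0.01, beside 0.514% of all genes. At an adjusted p of 0.05, 6 genes (C1qa, C1qb, C1qc, Cfp, Fcna and Cfb) were higher in the females, beside 6.32% of all genes, and 3 (C8a, C8b and C9) were lower, beside 0.86%. Without either female 0 of 34 passed 0.05, as over all genes the calls fell from 1019 to 15 without Alb-Cre- replicate 2 and 16 without Alb-Cre+ replicate 2, while the log2 difference itself ran from 1.25 to 1.49 for C1qa and from -1.36 to -0.92 for C8b over single mice left out. Without Alb-Cre+ replicate 3, 5 of 34 passed, beside 3.24% of all genes (463). The median log2 difference of all genes (female minus male) was itself 0.26, and 0.054 when the mice were scaled by the median of ratios, so each value below is to be read against 0.26.

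All 7 macrophage genes were higher in both females than in every male, with log2 differences from 1.26 to 1.77 and a median of 1.38, beside 36.6% of all genes that lay above all males. The difference was 1.37 (SE 0.16, adjusted p = 0.0116) for C1qa, 1.38 (SE 0.16, adjusted p = 0.0122) for C1qb and 1.48 (SE 0.16, adjusted p = 0.0101) for C1qc (limma, 2 females and 4 males). For Cfp it was 1.77 (SE 0.23, adjusted p = 0.0145), and for Fcna 1.26 (SE 0.24, adjusted p = 0.0348). Under median of ratios scaling the macrophage median was 1.16, and C1qa and C1qc then had adjusted p of 0.00950 and 0.00921. The receptor genes had the same direction, 1.32 (SE 0.40, adjusted p = 0.0934) for C3ar1 and 1.44 (SE 0.36, adjusted p = 0.0615) for C5ar1, and did not pass. Neither did the collectin genes of the lectin route, 0.89 (SE 0.39, adjusted p = 0.194) for Colec10 and 0.67 (SE 0.27, adjusted p = 0.160) for Colec11. Of the cells known to make collectins besides hepatocytes, stellate and fibroblast markers summed to 216 and 210.4 TPM in the females and between 76.2 and 159 TPM in the males. Most of that sum was Dcn, at 191 and 182 TPM in the females and between 65.7 and 137 TPM in the males. Of the 8 markers, 5 lay above all males in both females and 0 passed an adjusted p of 0.05 (limma). Col1a1 and Col3a1 differed by -0.22 ± 0.27 and 0.055 ± 0.24 (± SE). The part of these cells was not tested.

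Macrophage markers moved alongside. All 10 markers on a list without complement components apart from Vsig4, itself a receptor for C3b (Adgre1, Clec4f, Csf1r, Cd68, Marco, Timd4, Cd5l, Vsig4, Cd163 and Fcgr1) were higher in both females than in every male, with a median log2 difference of 1.57, and 9 of them passed 0.05. Their summed level was 498 and 539.8 TPM in the females and between 138 and 210.1 TPM in the males. Summed C1q per summed marker stayed between 0.748 and 0.900 in all mice, a spread of 1.2-fold, where summed C1q itself ran from 124 to 404 TPM. Cfp per summed marker was 0.128 and 0.138 in the females and from 0.105 to 0.115 in the males. That of Fcna overlapped between the sexes. In bulk tissue, fewer macrophages and less RNA per macrophage cannot be told apart. Neutrophil markers summed to 146 and 299 TPM in the females and at most 53.8 TPM in the males, and monocyte markers to 48.5 and 44.7 TPM against at most 12.4 TPM. Sinusoidal endothelial markers summed to 174 and 200 TPM in the females and between 82.4 and 140 TPM in the males. The sums of B and plasma cell markers (7.51 and 7.06 against at most 4.75 TPM) and of T and NK cell markers (6.55 and 4.42 against at most 3.58 TPM) were also higher in the females. Single markers did not all follow. Of those tested, 4 of 6 and 3 of 5 lay above all males in both females, beside 36.6% of all genes. At an adjusted p of 0.05 for sex (limma), 1 and 0 passed. Cholangiocyte and mesothelial sums overlapped between the sexes, and erythroid sums were lower in the females. The part of these cells in the complement values was not tested.

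The hepatocyte members did not share one direction: 12 were higher and 9 lower in the females, with a median of 0.064, below the median of all genes, and -0.15 under median of ratios scaling, where 7 of the 34 complement genes changed sign. The terminal genes were the low ones. C6 differed by -2.11 (SE 0.48, adjusted p = 0.0512), C8a by -1.26 (SE 0.24, adjusted p = 0.0335), C9 by -1.25 (SE 0.23, adjusted p = 0.0296) and C8b by -1.14 (SE 0.16, adjusted p = 0.0165). That is a mean of 115 TPM in females and 278 TPM in males for C9, and 12.8 and 63.0 TPM for C6. The direction was the same in both genotypes, for C8b -1.36 in controls and -0.92 in Alb-Cre+ mice. C8g had the same sign, -0.44 (SE 0.14, adjusted p = 0.104), and C5 (Hc) was near 0 at -0.079 ± 0.22 (± SE), so that Hc per C9 was 0.981 and 0.930 in the females and from 0.397 to 0.442 in the males. C9 per C8a, in contrast, stayed between 1.58 and 1.88. Altogether 6 hepatocyte genes (C6, C8a, C8b, C8g, C9 and Masp2) lay below all males in both females, where 5% of all genes did.

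**Figure D4:**
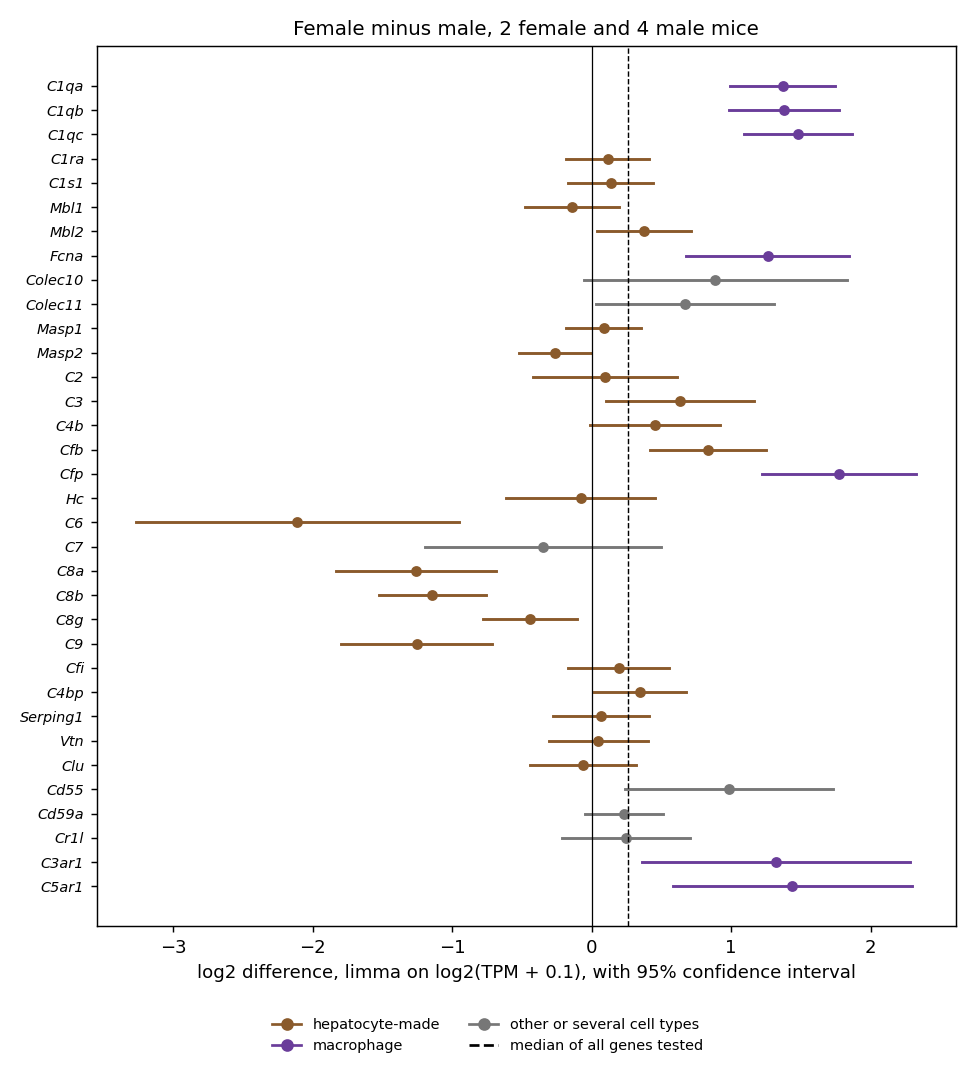
Log2 difference between sexes (female minus male, limma with genotype in the model) with its 95% confidence interval, coloured by the cells that make each gene; the dashed line is the median of all genes, 0.26. The macrophage genes lie between 1.26 and 1.77, and C6, C8a, C8b and C9 between -2.11 and -1.14.

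Factor B went the other way from the terminal genes, and so did C3, though mainly in the Alb-Cre+ mice. Cfb differed by 0.83 (SE 0.17, adjusted p = 0.0415) and C3 by 0.63 (SE 0.22, adjusted p = 0.126). Under median of ratios scaling Cfb differed by 0.61 with an adjusted p of 0.0755 (limma) and did not pass 0.05. C3 then differed by 0.41, with an adjusted p of 0.201 (limma). Within the controls the difference of C3 was 0.28, near the median of 0.26 over all genes, and within the Alb-Cre+ mice it was 0.99. For Cfb these were 0.50 and 1.16. The control female held 1947 TPM of C3, just above the highest male at 1939 TPM. Both genes were highest in the female Alb-Cre+ mouse. Genes of the acute phase (the liver's response to inflammation) were high in that mouse too, with Saa1 at 7139 and Lcn2 at 2597 TPM. Saa1 was also high in the control female, 2697 TPM, and in the male control replicate 3, 6359 TPM. It was between 66.3 and 125 TPM in the other 3 mice. Of the 10 acute phase genes listed, 6 were higher in both females than in every male (Saa3, Orm1, Orm2, Hp, Fgg and Hpx), beside 36.6% of all genes, and 2 passed an adjusted p of 0.05. Saa1, Saa2, Lcn2 and Itih4 were not. The smallest adjusted p for sex in the list were 0.0138 (Orm2) and 0.0387 (Orm1, limma). Orm2 was at 1288 and 2329 TPM in the females and at 120 TPM in the male control replicate 3. In that male control C3 and Cfb were 1591 and 462 TPM, within or near the range of the other males. The part of the acute phase response in the complement values was not tested.

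**Figure D5:**
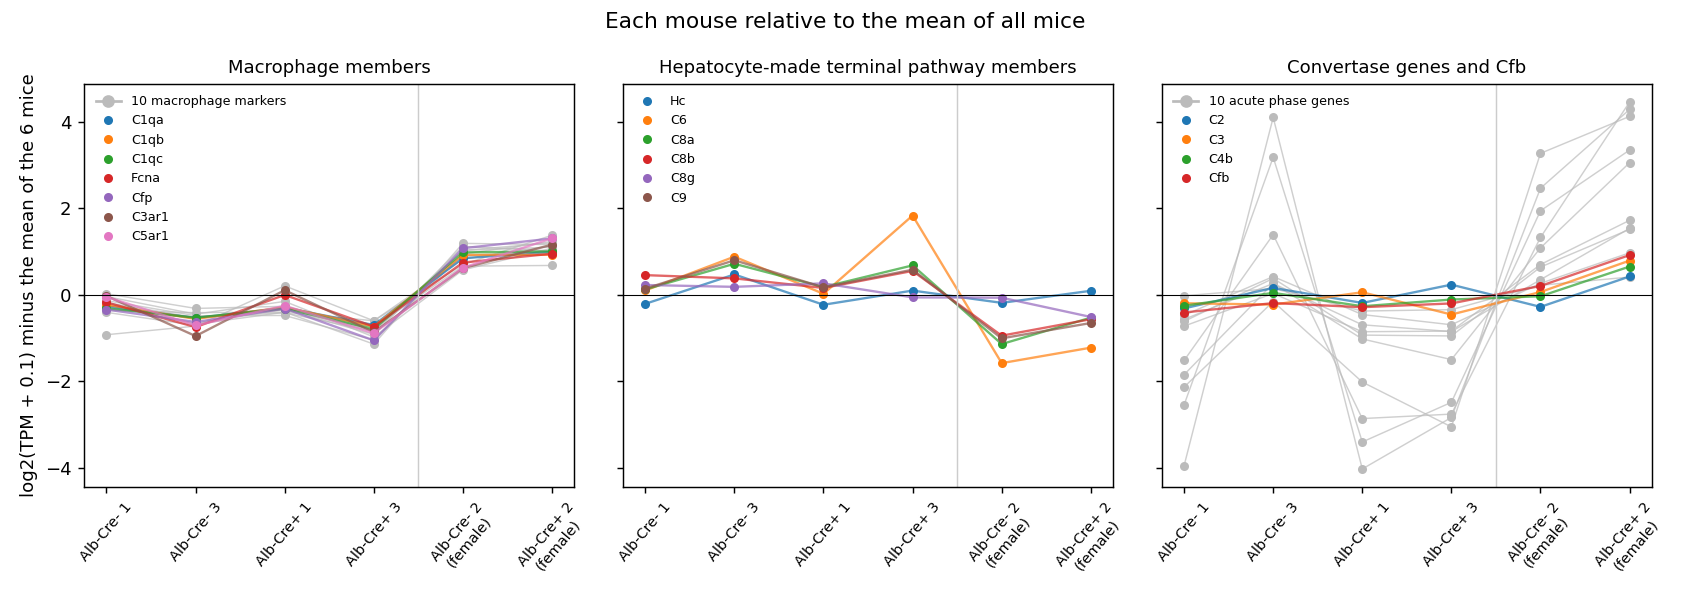
Each mouse relative to the mean of the 6, as log2(TPM + 0.1), with lines joining the values of one gene: macrophage members with 10 macrophage markers in grey (left), hepatocyte-made terminal genes (middle), and C2, C3, C4b and Cfb with 10 acute phase genes in grey (right). The females, at the right of each panel, stand high in the left panel and low in the middle one except for Hc, and in the right panel some of the acute phase genes are also high in Alb-Cre- replicate 3.

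Whether genotype acted differently in the sexes could be tested only with 1 female per genotype. None of the 34 genes passed (0 at an adjusted p of 0.01 or 0.05), and 2, C4b and Cfb, had an unadjusted p under 0.05, beside 6.08% of all genes. Of the 34, 30 had a difference above 0 between the female and the male genotype contrast, with a median of 0.39 on the log2 scale, beside 70.7% of all genes and a median of 0.23. That difference was 0.77 ± 0.26 for C4b and 0.66 ± 0.24 for Cfb on the log2 scale (± SE).

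Other complement genes outside the 35 were not called for genotype either, as no gene of the whole table was. Of 22 listed, 21 were in the table and 16 were tested, with 9 higher and 7 lower and a median log2 difference of 0.0054. Of the 16, 0 were called, beside 0% of all genes, and 0 had an unadjusted p under 0.05 (limma), beside 1.76%. The most abundant was Calr, calreticulin, a chaperone of the endoplasmic reticulum that also binds C1q, at 384, 240.2 and 399.8 TPM in the controls and 435, 453 and 313 TPM in the Alb-Cre+ mice, and it differed by 0.25 ± 0.24 (± SE). Among those secreted from liver were Cpb2, the carboxypeptidase that inactivates C3a and C5a, between 185 and 289 TPM, and Cpn1, a subunit of another such enzyme, at 132, 130.1 and 126 TPM in the controls and 119, 104 and 98.6 TPM in the Alb-Cre+ mice, which differed by -0.27 ± 0.12 (± SE). Between the sexes 5 passed an adjusted p of 0.05. Higher in the females were 4, beside 6.32% of all genes: Vsig4, Itgam, Itgb2 (the chains of complement receptor 3) and Cd93. Vsig4 is also among the macrophage markers above. Lower was 1, beside 0.86% of all genes: Susd4, a complement inhibitor, at -2.02 ± 0.33.

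C8a and C8b, both lower in the females and at 0.932 to 1.48 C8b per C8a in TPM, lie next to each other on chromosome 4 (chr4:104815679-104876398, minus strand; chr4:104766317-104804548, plus strand) and are read toward each other. Their promoters are printed for that reason, as the 150 bases before the RefSeq start on the strand of the gene (GRCm38.p6; chr4:104876399-104876548 for C8a and chr4:104766167-104766316 for C8b), with capitals for the motif GTTAAT, part of the site of the hepatocyte factor HNF1.
C8a: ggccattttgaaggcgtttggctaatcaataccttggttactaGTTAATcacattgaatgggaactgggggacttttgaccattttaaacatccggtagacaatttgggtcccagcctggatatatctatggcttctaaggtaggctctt
C8b: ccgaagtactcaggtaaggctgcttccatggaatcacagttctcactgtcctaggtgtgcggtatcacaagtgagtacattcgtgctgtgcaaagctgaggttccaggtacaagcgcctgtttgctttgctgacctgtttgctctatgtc
GTTAAT, on either strand, was in the C8a window, 107 bases before the start, and not in that of C8b. Among the 26 members with a RefSeq promoter it was in 5 (Hc, C8a, Cfp, C4bp and Vtn), and in 3.71% of 32851 promoters of the same length. TTGCNNAA, a C/EBP motif, was in 2 of the 26 (C3 and C9) and in 5.46% of all. The STAT5 motif TTCNNNGAA was in 1 (Masp2) and in 4.09%, and the HNF4 motif CAAAGTCCA was in 0 of 26 and in 0.271%. No window of a member held matches to more than 1 of these motifs, and a match is a description of the letters only.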

How the data were processed

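Liver RNA-seq of 6 Surf4 fl/fl mice was used, 3 per genotype. The authors deposited TPM per transcript and mouse in a table named for Salmon, whereas their methods and processing notes also name STAR and RSEM with GRCm38. Versions are not given in the sources used here, and neither is the step that set the share of reads between gene copies. From a second deposited table only the mean normalized count was read, a signal value the authors made with DESeq2, pooled over all mice. Its columns with the comparison of the authors (fold changes and p-values) were not used. No molecular depth per mouse is known.

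TPM of 116748 transcripts were summed by gene symbol (rows without a symbol held at most 0.0887% of TPM). The 14189 genes whose mean reached 0.1 TPM were tested as log2(TPM + 0.1), so folds of low genes are understated, with limma 3.58.1 in R 4.3.3, empirical Bayes with a trend, and Benjamini-Hochberg adjustment over all genes at 0.01. Genotype was the only factor, and sex was tested with genotype in the model. Whether the mice of a genotype came from separate litters is not stated. Deviations from the genotype means correlated for same-numbered mice in all 3 pairs (Pearson r across genes of 0.367, 0.588 and 0.370; genes are not independent), so a fit with the replicate block was also made. The other alternatives were pseudocount, filter, sex as a covariate, scaling, variance trend, threshold and leaving out mice, and males alone was added after seeing the data.

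Named with full values were genes whose genotypes did not overlap, 5 genes per direction by smallest p, the most abundant of each role and those under the minimum; other genes were given for the sex contrast after their values were seen. The members and lists were chosen with earlier results of these data known. Exons were read from GENCODE M21 by transcript ID, without its version, and promoters from RefSeq GRCm38.p6.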

Additional observations from a re-analysis of the deposited data

How the results depend on the processing

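No complement gene was called for genotype under any alternative run. Over all genes the count of 0 became 1 without Alb-Cre+ replicate 1 (0 to 1 over mice left out), and the transcripts called were 2 at an adjusted p of 0.05 and 1 without Alb-Cre+ replicate 1 (0 to 1). With the replicate block, which pairs same-numbered mice, 0 genes and 0 of 34 members were called, 666 genes and 0 members had an unadjusted p under 0.05, standard errors fell for 34 of 34 members, and the smallest member p was 0.0566 (C1s1); it changed no other call. Of 34 members, 11 kept the sign of the genotype difference in every alternative and 23 changed it in at least 1, up to 12 without Alb-Cre+ replicate 3; none of these values was called. The median of the hepatocyte members was -0.074 in male mice alone, chosen after seeing the data, and -0.083 to 0.18 with single mice left out; that of the macrophage members was -0.53 to 0.46. Members whose genotypes did not overlap numbered 4 under median of ratios scaling (5.84% of all genes did not), 8 in male mice alone (32.7%) and 2 to 7 with a mouse left out (9.58% to 20.3%). For sex, 0 members became 1 with a pseudocount of 1 TPM, 1 with a minimum mean of 1 TPM, 2 under median of ratios scaling and 9 at an adjusted p of 0.05. The 73 genes called for sex became 1019 at 0.05, 31 without the variance trend and 3 to 51 with a mouse left out (3 without either female, 43 without Alb-Cre+ replicate 1, 32 without Alb-Cre+ replicate 3, 49 and 51 without Alb-Cre- replicates 3 and 1). The cause of these shifts was not tested. Unknown depth limits what can be said of C7, Cfd and the receptors, and 2 female mice limit the sex contrast.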
